A study of Mus musculus with 4 samples.

Results

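The widest stretches of open chromatin shared by all 4 libraries were examined in mouse CD4+ T cells that were being polarized towards induced regulatory T cells (iTregs), without or with IL-4. Peaks of the 4 lists were merged where they shared at least 1 base, and regions on assembled chromosomes were selected on width: each library had to hold a single peak of at least 2000 bases in the region. This rule chose 86 regions out of 93503 merged regions and out of 45125 regions in which each library held a single peak. Of the 86 wide regions, 44 overlapped a GENCODE vM21 transcription start site and 42 did not. Since the widths chose them, widths are given as a description.

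Spleen cells sorted as naive helper T cells, CD4+ and CD25- with high CD62L and low CD44, came from male wild-type C57BL/6 mice aged 7 weeks by the labels (the study's methods give a range around that age). All were activated for 48 h by anti-CD3 bound to the plate at 5 µg/ml and anti-CD28 in solution at 1 µg/ml, with human TGF-β1 (5 ng/ml) and mouse IL-2 (10 ng/ml). The iTreg+PBS group (2 libraries) had no IL-4 and the iTreg+IL-4 group (2 libraries) had mouse IL-4 at 15 ng/ml, and the study describes its samples as biologically independent pools, so the number of mice behind each library is not known here. ATAC-seq lets the Tn5 transposase cut DNA that is not wrapped in nucleosomes, and each library was deposited as a list of MACS2 peaks on mm10 with a −log10 q-value and a pileup height. The lists held between 56645 and 78670 peaks, with iTreg+PBS replicate 2 the shortest. They contain no reads, so the sequencing depth is unknown and no counting error can be given for a width. Start sites of 7 of 8 CD4+ T cell markers lay in a peak region called in all libraries, and that of Bcl11b lay in no peak of any library. The counts were 1 of 5 for B cells (Ebf1), 1 of 5 for myeloid cells (Cd14), 0 of 3 for NK cells and 0 of 3 for erythroid cells. In at least 1 library they were 2 of 5 for B cells, 2 of 5 for myeloid cells, 1 of 3 for NK cells and 0 of 3 for erythroid cells.

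An open region is usually a short nucleosome-free stretch at a promoter or enhancer. A peak caller reports a wider stretch where several such sites lie side by side, as at promoters rich in CpG dinucleotides and with many start sites. Satellite DNA, ribosomal DNA, copies of the mitochondrial genome and other sequence that is present more often in the cell than in the assembly can also give long high pileups, because reads from all copies are placed on few positions. For this reason the repeat content of every region was measured from the genome: each 31-base word (31-mer) was counted in the GRCm38 primary assembly and mitochondrial genome, on both strands, and a region was called mostly single-copy where at least 50% of its 31-mers occurred once.

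The wide regions fell into 2 nearly separate kinds. In 41 of them at least 50% of the 31-mers had a single copy, and in 45 of 86 (52.3%, 95% Wilson interval 41.9 to 62.6) most were repeated. Only 3 regions lay between 20% and 80%. Among all 45125 single-peak regions, 2966 (6.57%, interval 6.35 to 6.81) were mostly repeated. The start-site class and the repeat class overlapped closely: 37 of the 44 regions with a start site were mostly single-copy (84.1%, interval 70.6 to 92.1), while 38 of the 42 without one were mostly repeated and 4 were mostly single-copy. Intervals here and below cover the number of regions only, which are not replicates.

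To show what the peaks cover, the 150 bases immediately before the outermost annotated start site are printed for 6 promoters, 3 of the widest promoters with 1 coding gene and no annotated exon in that window, and the 3 at genes of the T cell transcription factor and TGF-β lists. They were read from GRCm38 in the direction of transcription and capitals mark GGGCGG, the box of SP and KLF factors, or CCAAT, on either strand (CCGCCC or ATTGG).
Rreb1 (chr13:37825825-37825974, plus strand): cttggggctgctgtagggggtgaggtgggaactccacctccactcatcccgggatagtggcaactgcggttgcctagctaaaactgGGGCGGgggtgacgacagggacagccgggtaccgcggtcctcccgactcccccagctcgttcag
Klf16 (chr10:80577322-80577471, minus strand): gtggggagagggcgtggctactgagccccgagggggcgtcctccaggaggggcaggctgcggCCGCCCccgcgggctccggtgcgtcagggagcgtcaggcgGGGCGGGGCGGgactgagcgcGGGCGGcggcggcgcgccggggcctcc
Ppp2r3d (chr9:124424155-124424304, minus strand): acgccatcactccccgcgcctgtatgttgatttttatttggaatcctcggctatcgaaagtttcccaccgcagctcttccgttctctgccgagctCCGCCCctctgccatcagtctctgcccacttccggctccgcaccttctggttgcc
Runx1 (chr16:92697329-92697478, minus strand): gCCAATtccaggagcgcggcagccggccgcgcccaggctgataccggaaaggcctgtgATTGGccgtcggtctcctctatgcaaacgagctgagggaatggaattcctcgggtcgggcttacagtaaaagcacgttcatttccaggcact
Irf4 (chr13:30749076-30749225, plus strand): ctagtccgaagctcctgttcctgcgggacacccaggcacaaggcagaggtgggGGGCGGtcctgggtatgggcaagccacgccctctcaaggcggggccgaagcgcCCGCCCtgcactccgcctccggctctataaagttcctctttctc
Tgif1 (chr17:70851735-70851884, minus strand): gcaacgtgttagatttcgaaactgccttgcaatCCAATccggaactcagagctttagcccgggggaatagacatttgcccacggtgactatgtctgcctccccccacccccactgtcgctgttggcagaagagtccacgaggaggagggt

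GGGCGG was found in 11 of the 20 such windows of wide promoters (55.0%) and in 28.6% of 32851 RefSeq promoter windows of the same length. The sets are unlike, since the 20 are open promoters of 1 coding gene with no exon in the window and with 1 chromosome left out, and the RefSeq windows were not filtered. CCAAT was found in 5 of the 20 and in 24.5% of the RefSeq windows. Klf16 held 4 GGGCGG matches, a pair of them overlapping, whereas Runx1 held 2 CCAAT matches and no GGGCGG. In the 1000 bases around the region centre, GGGCGG occurred in 27 of the 37 single-copy wide regions with a start site (73.0%) and in 81.0% of the 12701 single-peak regions with a start site. Over the same windows CCAAT was in 21 of 37 (56.8%) against 65.2%, and the ETS core CCGGAAG in 21.6% against 28.0%. The RUNX core TGTGGT was in 43.2% against 38.8%, the AP-1 core TGANTCA in 16.2% against 16.8%, and the E-box CACGTG in 21.6% against 22.0%. The STAT6-type palindrome TTCNNNNGAA was in 5 of 37 (13.5%) against 17.2%. All were searched on both strands, so each share counts matches of letters and not factor binding.

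For the repeated kind, the unit that recurs along the peak is printed for 3 regions, with capitals at bases that differ in the next unit, followed by a stretch that matches the mitochondrial genome, with a capital at the base that differs from it.
Satellite block on chromosome 9 (chr9:3027538-3027771, plus strand): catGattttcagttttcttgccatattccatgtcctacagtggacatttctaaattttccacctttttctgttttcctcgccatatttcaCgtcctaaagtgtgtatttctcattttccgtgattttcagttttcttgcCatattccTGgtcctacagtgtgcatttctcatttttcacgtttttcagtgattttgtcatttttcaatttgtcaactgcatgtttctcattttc
Pfkp intron (chr13:6605862-6605921, plus strand): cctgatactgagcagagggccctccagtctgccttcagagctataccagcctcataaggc
Chromosome 8 block near Gm20778 (chr8:20069467-20069622, plus strand): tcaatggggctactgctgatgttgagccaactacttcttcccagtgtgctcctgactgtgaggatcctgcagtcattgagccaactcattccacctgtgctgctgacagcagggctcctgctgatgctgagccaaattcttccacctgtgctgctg
Mitochondrial copy on chromosome 1 (chr1:24613058-24613177, minus strand): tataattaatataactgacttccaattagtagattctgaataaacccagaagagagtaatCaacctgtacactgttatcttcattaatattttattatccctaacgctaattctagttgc

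The widest region of the whole set, chr9:3027075-3038233, lies at the centromeric end of the chromosome 9 assembly and holds start sites of the predicted genes Gm10715, Gm10717 and Gm17535. Its peak measured 11111 and 11131 bases in the iTreg+PBS libraries (replicate 1, then 2) against 11138 and 11112 in the iTreg+IL-4 libraries, so the groups overlapped. The sequence recurred every 234 bases, the length of the mouse major satellite unit, with 77.3% of bases equal to the base 234 further on, and 7.3% of its 31-mers had a single copy. The next blocks on the same chromosome belonged to the same family, with 55.6% to 56.2% of 31-mers shared. The region at Gm10722/Gm11168 had widths of 4694, 4692, 4875 and 4686 bases in the same library order, and the one inside Gm11168 had 5128, 5202, 5115 and 4821 bases. The 3 blocks were separated by 1085 and 16025 bases. One more block, chr9:3011449-3026867, lies between them and was not chosen because 3 of the libraries split it into 2 peaks.

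At chr1:24611616-24616125, which holds start sites of 6 pseudogenes including Gm10222 and Gm28437, the widths were 4510, 4508, 4505 and 4503 bases, and 99.8% of the merged bases were common to all peaks. Of its 31-mers, 98.8% occurred in the mitochondrial genome. Aligned over its 4510 bases, it differed from mitochondrial positions 6453 to 10961 by 2 edits (99.96% the same). Its height was the highest of the list in iTreg+PBS replicate 1 (a pileup of 16278) and was 10478, 16852 and 13189 in the other libraries. Reads from mitochondria and from this nuclear copy cannot be told apart over most of its length.

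The next widest start-site regions were a ribosomal RNA record and 3 other genes. The region chr17:39845043-39848762 covers an rRNA gene record (CT010467.1) and the noncoding records AY036118, Gm26917 and Gm42418, and measured 3700, 3692, 3716 and 3681 bases with heights of 3324, 1812, 3138 and 2440. By 31-mers it was mostly single-copy (78.2%), a count of copies in the assembly, and ribosomal DNA is known to occur in long arrays. Gm21738 on chromosome 14 (chr14:19415722-19419403) measured 3682, 3681, 3682 and 3676 bases, was 61.3% single-copy, and carried 84.2% of its bases in the soft-masked, repeat-annotated part of the genome. Muc19, a mucin gene, held a region of 3695, 3645, 3669 and 3653 bases in which 87.9% of bases recurred at a shift of 489. Gm5152 held one of 3187, 3158, 3180 and 3115 bases with 16.1% single-copy 31-mers.

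After these, the widest start-site regions were promoters of known genes in single-copy sequence. Rreb1, a zinc finger transcription factor, had peaks of 2929 and 2887 bases without IL-4 against 2906 and 2871 with it. Nr3c1, the glucocorticoid receptor, had 2813 and 2842 bases without IL-4 against 2932 and 2816 with IL-4. Pfn1, an actin-binding profilin, had 2809 and 2823 bases without IL-4 against 2815 and 2848 with IL-4. In each of these the groups overlapped. Klf16, Ppp2r3d, Nipbl, Vim and Sgsm2/Tsr1 completed the 15 widest with a start site, at 2457 to 2644 bases in their narrowest library. Nipbl loads cohesin onto chromatin, Vim encodes the intermediate filament vimentin, and Tsr1 serves ribosome assembly.

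**Figure D1:**
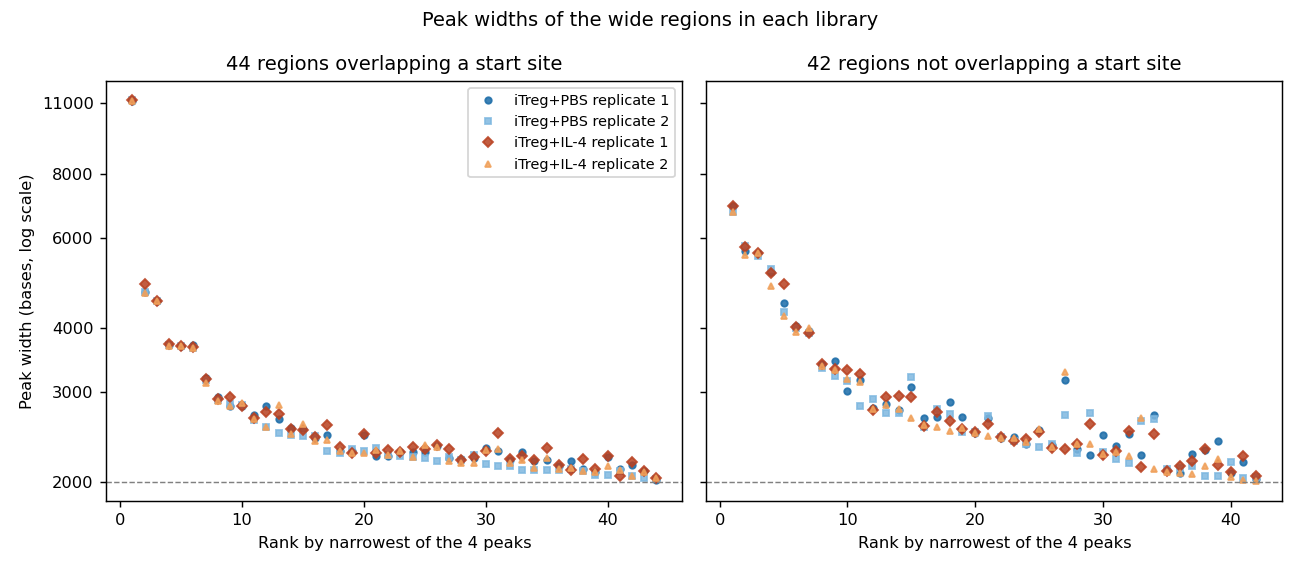
Peak width (bases, log scale) of each wide region in the 4 libraries, ranked by the narrowest peak, for the 44 regions overlapping a start site (left) and the 42 without (right). The dashed line is the 2000-base minimum, and the 4 libraries nearly coincide in most regions, from 11111 bases down to the minimum.

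The widest regions without a start site lay in introns or between genes, and most were tandem repeats. In an intron of Pfkp, a phosphofructokinase of glycolysis, the peak measured 6904 and 6719 bases without IL-4 against 6910 and 6727 with it, and 97.2% of its bases recurred after 60. In an intron of the kinase gene Sik3 it measured 5597 and 5525 bases without IL-4 against 5600 and 5602 with IL-4, with a shift of 34 bases and 94.9% of bases the same. In Pfkp the replicates 2 were both the narrower and the groups overlapped, whereas in Sik3 both IL-4 peaks were wider than both PBS peaks, by as little as 3 bases.

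Several wide repeats were copies of each other. A family of 5 regions on chromosome 8 shared 35.4% to 64.2% of 31-mers and recurred every 156 bases. The widest, chr8:20660861-20666661, had peaks of 5659, 5776, 5757 and 5545 bases, and the region near Gm20778 had 3391, 3333, 3393 and 3366 bases. A family of 3 on chromosomes 3, 4 and 5, near 9130204L05Rik, Mup-ps15 and Gm43026, had a 208-base unit with a median of 2276 to 2556 copies per 31-mer. The first measured 4468, 4285, 4872 and 4210 bases and the second 3442, 3221, 3327 and 3306 bases. A family of 4 lay on chromosome Y, at 2045 to 2257 bases in the narrowest library, with at least 65.6% of 31-mers shared.

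The region near Gm3318 on chromosome 10 measured 4039, 3994, 4016 and 3925 bases, with a 19-base shift. The region near Gm22973 on chromosome 12 measured 3945, 3910, 3908 and 3986 bases, with a 95-base unit that was 99.9% repeated. In the gene of the kinesin Kif27 the widths were 3012, 3151, 3307 and 3176 bases. Tsnax, a region near Gm26182 on chromosome X, Edem3, a second block near Gm21119 and Prim2, a subunit of DNA primase, filled the 15 widest of this class, at 2670 to 2807 bases in the narrowest library. The X chromosome region had no tandem shift but a median of 5135 copies per 31-mer.

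Of the 45 mostly repeated regions, 34 (75.6%, interval 61.3 to 85.8) had a shift of 2 to 500 bases at which at least 60% of bases were equal, and in 23 of those 34 the shift was 100 bases or less. Among the 41 single-copy regions none reached 60%, with a median of 31.2% and a highest value of 58.4% (Gm21738). The other 11 repeated regions were the mitochondrial copy, 1 of the chromosome 9 blocks, the chromosome Y family, the histone genes Hist2h2aa1/Hist2h3c1, Fcgr3, Gm5152 and the regions near Gm13392 and Gm26182. The repeated regions without a start site lay 19 times inside a gene and 19 times between genes, and exons covered 1.21% of their bases. In the single-copy regions with a start site, exons covered 36.8%.

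Across all single-peak regions the share with a start site rose with width and then fell. It was 10.1% where the narrowest peak was under 500 bases, 48.6% from 500 to below 1000, 73.5% from 1000 to below 1500 and 76.3% from 1500 to below 2000. From 2000 to below 2500 bases it was 58.2% of 55 regions, from 2500 to below 3000 35.7% of 14, and at 3000 or more 41.2% of 17. Repeated sequence made up 6.34% to 10.2% of each class below 2000 bases, 22 of 55 regions in the next class, 57.1% in the one after and 88.2% at 3000 or more. The last 2 classes hold under 20 regions each.

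**Figure D2:**
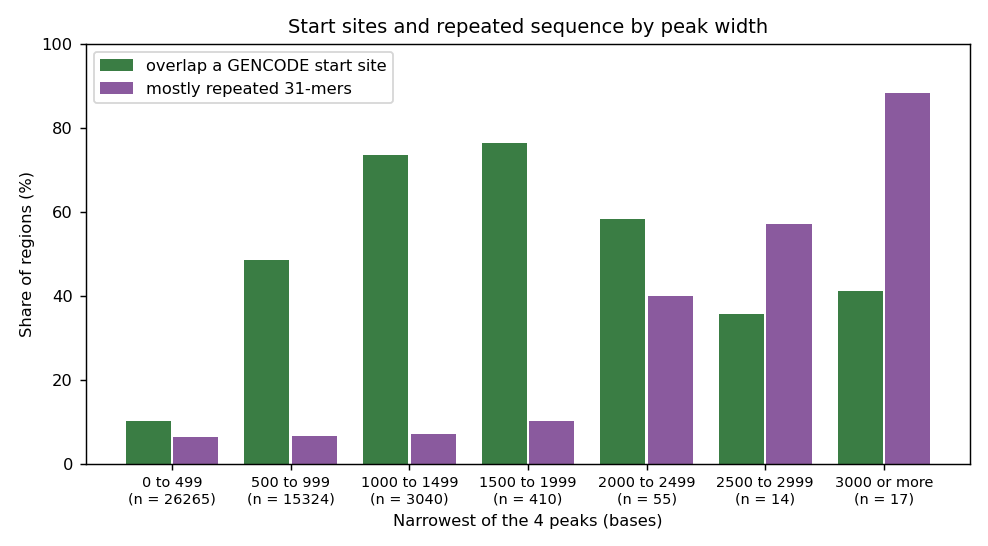
Share (%) of single-peak regions that overlap a start site (green) and that are mostly repeated (purple), by the narrowest of the 4 peak widths (bases), with the number of regions under each class. The green bars peak at 76.3% just under the 2000-base minimum and the purple bars reach 88.2% at 3000 bases or more.

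The extent of the peaks on either side of the start site was measured from the outermost start site of the region, which lengthens the downstream side. Among the 29 mostly single-copy regions in which exactly 1 coding gene started, the median was 1377 bases downstream and 831 bases upstream of the outermost start site, within the bases common to all libraries. In 19 of the 29 the downstream part was the longer (65.5%, interval 47.3 to 80.1). Over the 10331 single-peak regions with 1 coding gene the medians were 403 and 290 bases, and 64.4% were longer downstream, so the wide promoters did not stand out in this share. Longer sides follow from the choice of wide regions.

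Single promoters differed in shape. Rreb1 reached 825 bases upstream and 2019 bases downstream, and Crlf2, a chain of the receptor for thymic stromal lymphopoietin, reached 50 upstream and 2175 downstream. Irf4, a transcription factor induced through the T cell receptor, showed the opposite shape with 1985 bases upstream and 207 downstream. Runx1, which encodes a DNA-binding partner of Cbfb, reached 1594 upstream and 662 downstream of its outermost start site in the region. Over the 4 libraries the upstream reach of Irf4 ran from 1985 to 2025 bases and its downstream reach from 207 to 347. The upstream reach of Crlf2 ran from 50 to 118 bases. At Dyrk2 the outermost start site lay 18 bases outside the peak of iTreg+PBS replicate 2 and up to 318 bases inside the others, so the short side varied most in relative terms.

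**Figure D3:**
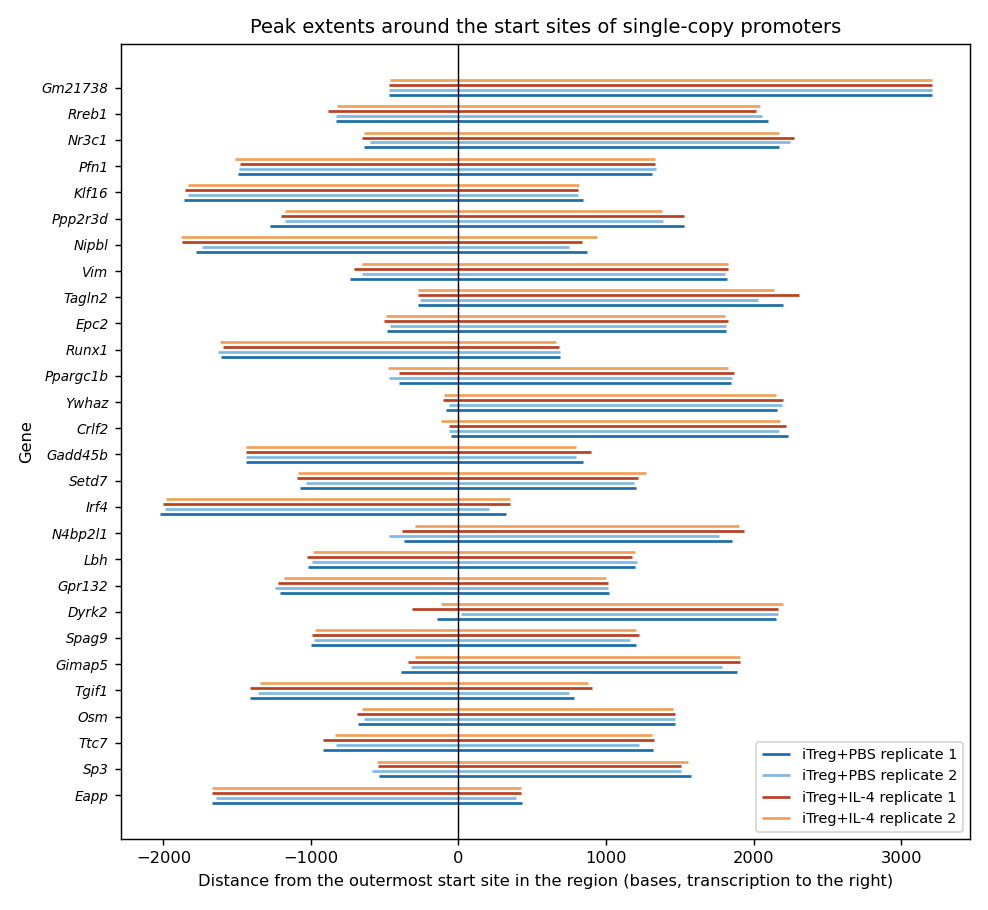
Extent of the peak in each library (lines, bases) around the outermost start site of the region for 28 of the 29 mostly single-copy regions with 1 coding gene, with transcription to the right and genes ordered by width. Irf4, Klf16 and Nipbl reach mainly upstream and Rreb1, Ywhaz, Crlf2 and Tagln2 mainly downstream.

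The GC content of the bases common to all libraries had a median of 55.6% over the wide regions and 51.2% over single-peak regions. With a start site and single-copy sequence the median was 61.2%, against 61.95% over all single-peak regions with a start site, and the ratio of observed to expected CpG was 0.77 against 0.75. Repeated regions without a start site had a median GC of 52.3% and a CpG ratio of 0.03, against 48.6% and 0.23 over single-peak regions without a start site. The single-copy regions with a start site were not uniform. The lowest in GC were Gm21738 (34.5%), Irf4 (46.9%), Eapp (48.0%), Gm23296/Gm24859 (49.1%), Gimap5 (50.0%) and Gpr132 (52.7%), all well below the median. Gimap5 and Gpr132 had CpG ratios of 0.20 and 0.19.

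Start sites of 2 or more coding genes were present in 9 of the 44 regions (20.5%, interval 11.2 to 34.5) against 9.6% of the single-peak regions with a start site, which are narrower. Besides the predicted genes on chromosome 9, these included Cbx3/Hnrnpa2b1, Mboat7/Tsen34, Rdh10/Rpl7 and Mepce/Zcwpw1. In 4 of 86 regions (4.65%, interval 1.82 to 11.4) RefSeq places a tRNA, snRNA, rRNA or snoRNA, against 0.594% of single-peak regions by the middle of the gene. Wide regions cover more bases each: per megabase of merged region there were 43.3 such genes (11 in 0.254 megabases) against 10.3 over single-peak regions, and the 11 lie in those 4 regions. A region near Gm22614 holds 4 tRNA genes, Fcgr3 holds 3 in full and 1 that crosses its edge, Gm23296/Gm24859 holds 2 U6 genes and Eapp holds a U1 gene. tRNA and U6 genes are transcribed by RNA polymerase III, and tRNA genes carry an internal B box. Of the 4 tRNA genes of the first region, chr3:96499460-96501995, which had peaks of 2485, 2502, 2497 and 2488 bases and no GENCODE start site, 3 are shown with capitals at matches to GGTTCGANNCC, searched on the transcribed strand.
n-TKctt16 (tRNA-Lys, chr3:96499512-96499584, minus strand): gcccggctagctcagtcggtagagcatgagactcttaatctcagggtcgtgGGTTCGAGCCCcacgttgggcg
n-THgtg8 (tRNA-His, chr3:96500366-96500437, minus strand): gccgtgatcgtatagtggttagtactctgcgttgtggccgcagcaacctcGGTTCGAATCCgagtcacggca
n-TGtcc7 (tRNA-Gly, chr3:96501009-96501080, minus strand): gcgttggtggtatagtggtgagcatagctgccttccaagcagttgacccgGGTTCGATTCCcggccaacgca

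The other single-copy regions without a start site were inside Hemk1 (2661, 2563, 2570 and 2587 bases, 484 bases from the nearest start site), Fnbp1 (2477, 2179, 2511 and 2246 bases) and Ndfip2 (2185, 2035, 2241 and 2011 bases, of which 54.6% of 31-mers were single-copy).

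Of 190 genes on 7 lists, 5 had a start site in a wide region (2.63%), and 0.346% of all single-peak regions with a start site were wide. These are shares of genes and of regions, and the lists were chosen with earlier results known, so nothing is read from the difference. Of 36 T cell transcription factors 2 had a start site in one, Runx1 and Irf4. Runx1 measured 2294 and 2315 bases without IL-4 against 2276 and 2278 with it, the IL-4 libraries both below the PBS libraries, and Irf4 2347 and 2195 without and 2354 and 2333 with it. Of 19 IL-4 and TGF-β feedback genes 1 did, Tgif1, a corepressor of Smad-driven transcription, with 2202 and 2107 bases without IL-4 against 2324 and 2223 with it, the IL-4 libraries both above the PBS libraries. Of 25 genes of RNA processing and noncoding RNA hosts 1 did (Hnrnpa2b1), and of 18 housekeeping genes 1 did (Ywhaz, the 14-3-3 zeta adaptor, at 2243 to 2307 bases). None of 33 T cell activation genes, 33 T cell surface receptors and 26 chromatin regulators did, and no gene of the lists held a wide region in its body. Over the start sites with a single peak in all libraries, the median of the narrowest width was 960 bases for the transcription factors, 1029 for the activation genes, 668.5 for the surface receptors and 947 for the feedback genes. It was 1031 for the chromatin regulators, 1073.5 for RNA processing and 1009 for the housekeeping genes, and 745 over all 12701 regions with a start site.

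Of the regions with a start site of a gene on none of these lists, 4 are given as examples, chosen after their values were seen. Gadd45b, a stress-induced gene, had 2289, 2236, 2337 and 2236 bases. Osm, the cytokine oncostatin M, had 2146, 2105, 2156 and 2113 bases. Gimap5, a GTPase of lymphocytes, had 2281, 2109, 2246 and 2204 bases, and Crlf2 had 2281 and 2241 bases without IL-4 against 2286 and 2299 with it.

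At the threshold, the members with the smallest narrowest peak were Trip11 (2006 bases), Fcgr3 (2011) and Ndfip2 (2011), and the regions just below it were Aff1 (1997), Actr3b (1992) and Ldha (1978). In all, 332 regions held a peak of at least 2000 bases in at least 1 library: 100 in 1 library, 73 in 2, 58 in 3 and 101 in 4. Of the last, 15 were not chosen because a library had several peaks in the region, and 1 of these 15 overlapped a start site. Among regions called in all libraries, 27 were wide in all but iTreg+PBS replicate 2 and 26 in all but iTreg+IL-4 replicate 2, against 5 for iTreg+IL-4 replicate 1 and 0 for iTreg+PBS replicate 1. Of the 27, 19 overlapped a start site, and of the 26, 4 did.

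The widest peak of a wide region was 1.04 times the narrowest in the median, and 94.2% of the merged bases were common to all peaks. The rule asks for a wide peak in every library, so these values describe the choice. The most variable member lay in 1300017J02Rik, with 3167 and 2700 bases without IL-4 against 2318 and 3275 with it, so both the lowest and the highest value were in the IL-4 group. iTreg+PBS replicate 2 was the narrowest library in 38 of the 86 regions, against 60.8% of the single-peak regions, and iTreg+IL-4 replicate 2 in 30, against 20.1%.

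The widths with and without IL-4 are given as a description, since the same widths chose the regions. The mean width was 2847 ± 38.8 bases without IL-4 and 2848 ± 37.9 with IL-4 (SD, n = 2 libraries each), a difference of 1.46 bases that is below the spread of the replicates. The 4 library means were 2874 and 2819 bases for iTreg+PBS and 2875 and 2821 for iTreg+IL-4. Start-site regions averaged 2731 ± 39.5 and 2757 ± 33.2 bases (a difference of 26.0), and the others 2968 ± 38.1 and 2944 ± 42.8 (a difference of -24.2, IL-4 minus PBS), so that both differences were also below that spread. No p-value is given for them, because the widths chose the regions.

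Region by region, both IL-4 peaks were wider than both PBS peaks in 13 of 86 (15.1%), against 22.5% over the 45125 single-peak regions, and narrower in 12 (14.0%), against 6.71%. After each width was divided by the median of its library over single-peak regions, 0 regions were wider and 11 narrower. Those medians were 579 and 465 bases for iTreg+PBS and 590 and 541 for iTreg+IL-4. They differ more than the widths of most wide regions, whose widest peak was 1.04 times the narrowest in the median. The division therefore largely sets these counts, and nothing is read from them about Nipbl, Dyrk2, Kif27 or other single regions. Before that division, 8 start-site regions were wider and 3 narrower, and among the others 5 were wider and 9 narrower. Shares over all single-peak regions of each class are not given here, so no contrast between the classes is read from these counts. In 16 of the 86 (18.6%) the difference of the group means was larger than both differences between replicates, against 16.8% of the single-peak regions. The single-peak regions as a whole averaged 594.5 ± 67.2 bases without IL-4 and 632.5 ± 30.2 with it (SD, n = 2), and the short list of iTreg+PBS replicate 2 moves with that background; its part in these counts was not tested.

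The largest mean increases with IL-4 were in Tsnax (3157 and 2807 bases without, 3245 and 3136 with), Nipbl (2652 and 2492 without, 2713 and 2820 with), Dyrk2 (2298 and 2146 without, 2487 and 2320 with), the region near 9130204L05Rik and Kif27. Of these, Nipbl, the kinase gene Dyrk2 and Kif27 had no overlap between the groups. The largest decreases were in Snx9 (2697 and 2652 bases without, 2475 and 2114 with), Prim2 (3068 and 3204 without, 2929 and 2670 with), the region near Rab44 (2868 and 2711 without, 2632 and 2508 with), Gm11168 and Herc2 (2661 and 2692 without, 2588 and 2458 with). In all 5 of these the groups did not overlap. All 5 were mostly repeated sequence, as were 3 of the 5 largest increases (Tsnax, Kif27 and the region near 9130204L05Rik) and 45 of the 86 regions.

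**Figure D4:**
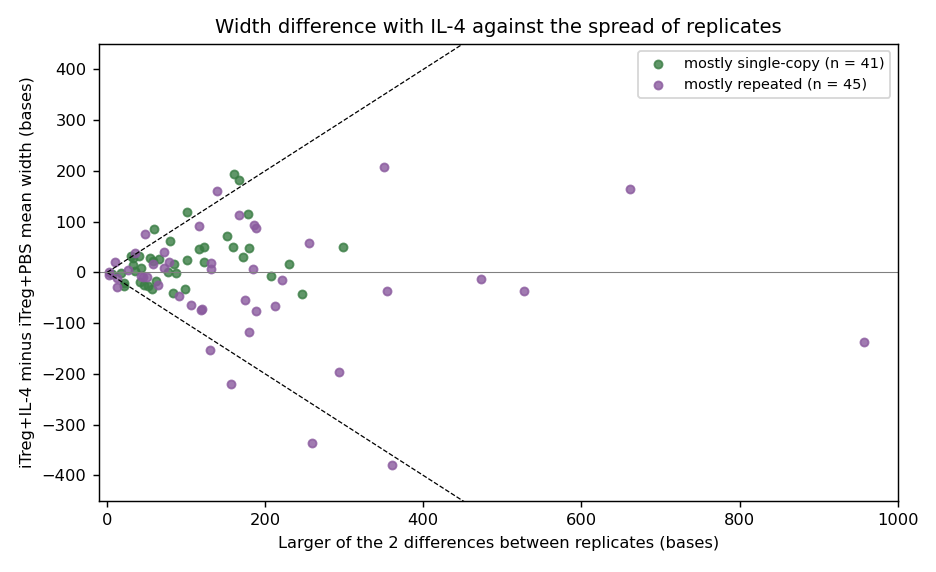
Mean width with IL-4 minus mean width with PBS (bases) against the larger of the 2 differences between replicates (bases) for the 86 wide regions, green for mostly single-copy and purple for mostly repeated sequence. Points beyond the dashed lines, 16 in all, have a group difference larger than either replicate difference, and both colours occur above and below 0.

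Peak heights, which the rule did not use, differed between the 2 kinds in the median, but not in both start-site classes alike. A single-copy wide region had, as a mean of the lists, 7.59% of the peaks of a list above it in the median, and a repeated one 40.5%. Among repeated regions the median was 1.40% for the 7 with a start site and 42.8% for the 38 without one. Among single-copy regions it was 7.56% for the 37 with a start site and 11.3% for the 4 without one. Fewer than 10% of peaks were higher (mean of the lists) in 26 of the 41 single-copy regions and in 9 of the 45 repeated ones. More than 40% were higher in 0 of the 41 single-copy regions and in 25 of the 45 repeated ones. The repeated regions ranged from very high peaks, at the chromosome 9 blocks and the mitochondrial copy, to peaks in the lower part of the lists, with 81.5% of peaks higher at 1300017J02Rik. In iTreg+PBS replicate 1 their heights ran from 26 to 16278, with a median of 73, and those of the single-copy regions from 122 to 3324, with a median of 409.

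Heights are not scaled between libraries, but their ratio between replicates can be set side by side for the 2 kinds. Over single-copy regions of any width, the height in iTreg+PBS replicate 2 was 0.44 times that in replicate 1 in the median. It was 0.484 times over the 41 single-copy wide regions (0.307 to 0.972), with Gm21738 the highest. Over the 45 repeated wide regions it was 0.644 times (0.201 to 1.296), beside 0.632 over the 2966 repeated regions of any width. In the chromosome 9 satellite family it was 0.98 to 1.03 times, and other repeated wide regions, such as that near Gm26182 (1.10), were as high or higher. At the Gm10722/Gm11168 block the heights were 7442 and 7691 without IL-4 and 8068 and 6258 with it, whereas at Klf16 they were 619 and 353 without and 495 and 512 with it. In the IL-4 libraries the ratio of replicate 2 to replicate 1 was 0.824 in single-copy and 0.691 in repeated wide regions. In the chromosome 9 family it was 0.776 to 0.835 there, beside 0.782 in single-copy and 0.764 in repeated regions of any width. Whether reads that map to several places were kept is not given in the sources used here, and the part of this in the heights was not tested.

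**Figure D5:**
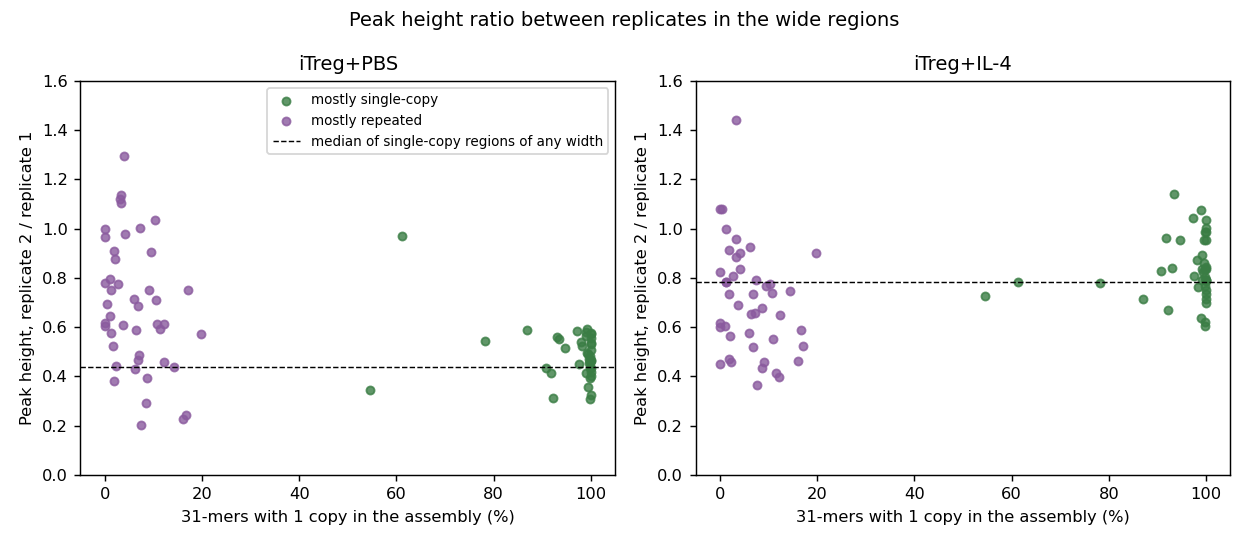
Ratio of peak height in replicate 2 to replicate 1 against the share of 31-mers with 1 copy in the assembly (%), for the 86 wide regions in the iTreg+PBS (left) and iTreg+IL-4 (right) libraries. The dashed line is the median of single-copy regions of any width (0.44 and 0.782), and in iTreg+PBS the repeated regions spread from 0.201 to 1.296 while all single-copy regions except Gm21738 lie under 0.6.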

How the data were processed

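The 4 ATAC-seq libraries (2 iTreg+PBS, 2 iTreg+IL-4) were grouped by the sample labels. Per the submitters' processing notes and the study's methods, the authors mapped read pairs to mm10 with Bowtie2 2.2.5, kept mapped pairs and called peaks in each library with MACS2 2.1.2; bedtools 2.16.2 is also named. Each deposited peak has a −log10 q-value and a pileup signal (height), meanings inferred from the numbers themselves in the absence of a header, and neither is scaled between libraries. Removal of duplicates, mitochondrial reads or blacklisted regions, the Tn5 offset and the treatment of multi-mapped reads are not given in the sources used here, and each could change widths or heights. A peak caller's stated width is not a direct measure of the open stretch.

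Regions, widths, start sites (GENCODE vM21), 31-mer copy number, GC content, motifs and tandem shifts were computed with Python 3.11.15, numpy 2.4.6, pandas 2.3.3, scipy 1.17.1 and numba; figures with matplotlib. Widths were compared over libraries, never over regions, and intervals are Wilson's at 95%. Wide promoters on chromosome 18 were left out of the share of 150-base windows with a motif. The tandem shift is the shortest of 2 to 500 bases within 2 percentage points of the best. The steps were tested on simulated lists with planted wide regions.

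The regions, gene lists and tests were chosen with earlier results of these data known. Named were the 15 widest regions of each class by their narrowest peak (widths in all libraries for the 10 widest), the 3 on each side of the threshold, the most variable region, the 5 with the largest IL-4 difference in each direction, and those at genes of the lists; other regions were named after their values were seen. Alternatives are given in the closing section. One region's gene and one printed sequence among those chosen are not reported here.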

Additional observations from a re-analysis of the deposited data

How the results depend on the processing

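The number of wide regions (86) was 496, 31 and 17 with a minimum width of 1500, 2500 and 3000 bases, and the share overlapping a start site (51.2%) was then 72.0%, 38.7% and 41.2%. That share was 66.2% with the upper 50% of each list. Restricted after seeing the data to mostly single-copy sequence, 41 regions were left and 90.2% overlapped a start site. Leaving out each library gave 86 to 113 regions and 44% to 54.9%.

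The width difference with IL-4 (1.46 bases) turned to -24.2 bases in regions without a start site and to -21.3 bases in repeated ones, and to -0.47 library medians after division by the median width. It ran from -26.0 to 28.9 bases when each library was left out (negative without iTreg+PBS replicate 2 and without iTreg+IL-4 replicate 1). Regions wider with IL-4 (13) numbered 105 and 2 with minimum widths of 1500 and 3000 bases, 0 after division by the median, 8 and 5 in regions with and without a start site, and 7 and 6 in single-copy and repeated ones. Regions narrower with IL-4 (12) numbered 48 and 2, 3 with a start site, and 2 in single-copy ones. Leaving out each library gave 19 to 39 wider and 18 to 31 narrower regions. With the replicate block (differences within each number) the difference was 1.46 bases and 27 regions were wider and 17 narrower. Deviations of same-numbered libraries had a correlation of -0.0871 over regions, a value that does not register a shift of a whole library. Mean widths lay close by number, at 2874 and 2875 bases for the replicates 1 and 2819 and 2821 for the replicates 2. Whether the numbers mark pairs or batches was not tested. Separation is easier to reach with 1 library in a group, or within each replicate number, than with 2 libraries in both groups. The leave-out and block counts are therefore not comparable with 13 and 12. Smaller sets hold fewer regions, and the division by the median largely sets its count. The cause of the other changes was not tested. No share over all single-peak regions is given beside these counts of wider and narrower regions, so nothing is read from them.

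The other 40 of 71 alternatives stayed within their limits. Depth is unknown, which limits every width.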

Other observations

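Sequences not placed on a chromosome held further wide peaks, although none met the rule of a single peak in each library. On an unplaced sequence, between 68546 and 114433, each library had 2 peaks, with summed widths of 45690 and 45630 bases for iTreg+PBS against 45654 and 45600 for iTreg+IL-4, with a highest pileup of 4119, 4027, 4499 and 3944. The widest single peak was 29971 bases, in iTreg+PBS replicate 2. Another stretch of the same sequence, between 37011 and 40455, had a widest peak of 2166, 2649, 2196 and 2478 bases in the same order of libraries. Of the 15 chromosomal regions that were wide in every library but split into several peaks in at least 1, 3 lay in the chromosome 8 block between 20677502 and 20706774, and others lay in the genes Btbd11, Kdm6b, Tmem267, Rsph3b and Smad4.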
